A study of Mus musculus with 8 samples.

Results

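Translation initiation factor genes were compared between mouse pancreas labelled wild type and pancreas labelled Sel1L knockout. Sel1L is an adaptor protein of the Hrd1 complex that clears misfolded proteins from the endoplasmic reticulum (ER). Genes were taken by symbol alone: every gene whose platform symbol begins with Eif and a digit from 1 to 6, except the eIF2 kinase genes (Eif2ak), Eif4ebp1, the Eif2s3 genes and pseudogene symbols. This gave 42 of the 18820 genes measured by a feature of 1 gene symbol. Where a gene had several features (9 of the 42), the feature brightest on average over the 8 arrays was used. Eif1, Eif2s1, Eif3g and Eif4g1 were not analysed here, and Eif3j1, Eif3j2 and Eif4ebp3 were met on shared features only.

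RNA of 4 wild type and 4 Sel1L knockout pancreas samples was hybridised to whole-transcript arrays, 1 array per sample. Per the labels' protocols, both groups were fl/fl for a Sel1L allele (Sel1ltm1e(KOMP)Wtsi, from C57BL/6N embryonic stem cells) in which loxP sites flank exon 6 and from which βActin-FLPe had removed the lacZ-neo cassette. The knockout group, labelled inducible Sel1L1 knockout, was ERCre+: it carried a Cre fused to the estrogen receptor under an actin promoter, which is not limited to pancreas. The samples labelled wild type were ERCre- littermates, so they were floxed and not free of the engineered allele, and loss of Sel1L and presence of active Cre cannot be told apart. Both groups were C57BL/6J in background, 8 to 20 weeks of age, and received tamoxifen (5 mg/ml in sunflower oil, 5 μl per g body weight, intraperitoneally) on consecutive days. How long after injection the tissue was taken is not stated in these sources. Whether each numbered sample is a separate mouse is not stated, so the spread behind every p-value could be technical rather than between animals.

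Initiation assembles a ribosome at a start codon. eIF2 brings the initiator methionyl-tRNA, and eIF2B reloads eIF2 with GTP for the next round; eIF3 is a large scaffold on the small ribosomal subunit; eIF4F (the cap binder eIF4E, the scaffold eIF4G and the helicase eIF4A) delivers the mRNA; eIF5B and eIF6 act where the subunits join. ER stress acts on this machinery through PERK, which phosphorylates the alpha subunit of eIF2 and thereby blocks eIF2B. Acinar cells, which make most of the protein in the exocrine pancreas, depend on a high rate of translation. None of these phosphorylation steps is read by RNA levels.

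Values are log2 RMA levels. Array medians over all features were 4.94 to 4.99 in wild type and 5.00 to 5.05 in knockout. Over the genes tested they were 5.35 to 5.50 in wild type and 5.53 to 5.62 in knockout. By both measures every knockout array had a higher median than any wild type array. Sel1l was lower on every knockout array (11.45 to 11.70) than on any wild type array (12.37 to 12.39), a difference of -0.76 (SE 0.0788, limma adjusted p = 0.000196). This was a 1.69-fold fall, so much of the Sel1l signal remained on the knockout arrays. Acinar markers gave high levels in all samples, with a list mean of 12.73 to 12.89 in wild type and 12.45 to 12.53 in knockout. Wild type replicate 2 stood apart in macrophage markers, with a list mean of 6.19 against 7.87 to 8.51 on the other wild type arrays. It was also low in stellate cell and fibroblast markers, at 7.10 against 8.26 to 8.65. Of the wild type arrays it was the lowest in ductal and lymphocyte list means too. Each array's description holds a letter code, no letter occurs in both groups, and what a letter means is not stated.

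More initiation factor genes rose than fell, and the rise lay mainly among eIF3 subunits. Of the 42 genes, 12 were higher and 4 lower in knockout (limma, Benjamini-Hochberg adjusted p under 0.05 over all genes). Those are 28.6% and 9.52% of the genes, against 16.1% higher and 12.6% lower among all 18820 genes tested (28.7% changed in either direction). Their median difference was 0.17 on the log2 scale, against -0.04 for all genes. The groups did not overlap for 15 higher and 6 lower members, where 17.6% and 14.6% of all genes had such groups. Most members are bright: 38 of 42 lay above the median gene, and among the 9410 genes above it 32.0% were called higher and 12.4% lower (44.4% in either direction). In that brighter set 15 of 38 members were higher and 4 lower, and the medians were 0.19 for the members and 0.13 for all genes compared. Those are 39.5% and 10.5% of the members, close to the shares among all the brighter genes. The differences were small, the largest rise being 1.58-fold.

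**Figure D1:**
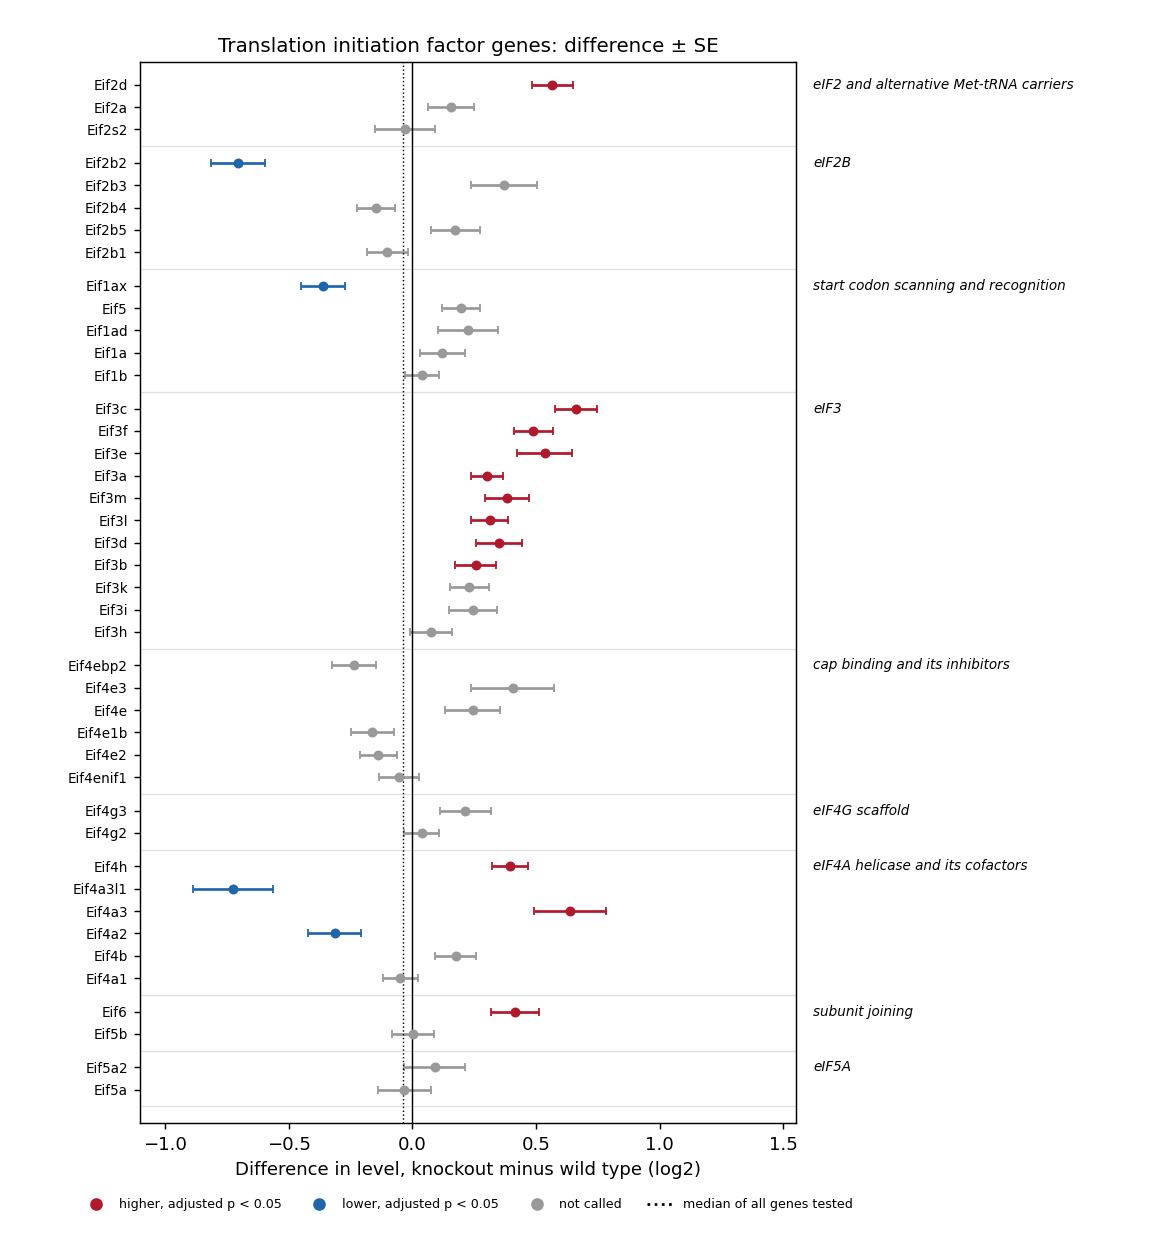
Difference in level (log2, knockout minus wild type, points) with the moderated standard error (bars) for the 42 initiation factor genes, grouped by role; colour marks genes called at an adjusted p under 0.05, and the dotted line is the median of all genes tested (-0.04). All 11 eIF3 points lie right of 0 on the deposited values (Eif3h turned to -0.03 after centring arrays on their medians), while eIF2B and eIF4A genes lie on both sides.

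Most eIF3 subunit genes were higher in knockout on the deposited values. Of 11 measured, 8 were called higher (72.7%, against 16.1% of all genes) and 0 lower. In the brighter set 9 of the 11 were called higher (81.8%, against 32.0%). On the deposited values 9 had knockout values above all wild type values, as had 17.6% of all genes, and the median difference was 0.31. The 2 features shared by Eif3j1 and Eif3j2 were left out of these counts. They differed by 0.02 and 0.05 with overlapping groups, and these differences were not tested. Eif3c, which encodes a subunit of the structural core that contacts eIF1 and eIF5, changed most. Its level was 9.97, 10.16, 10.15 and 10.28 in wild type and 10.74, 10.78, 10.85 and 10.83 in knockout. Every knockout array lay above every wild type array, and the difference was 0.66 (SE 0.0846, limma adjusted p = 0.000602, 1.58-fold). Eif3c has 2 further, dimmer features. One gave 0.56 (adjusted p = 0.0161 over all features) and the other -0.02 (adjusted p = 0.863), so the features of this gene disagree in part.

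Eif3e, Eif3f, Eif3l and Eif3m, all called higher, encode some of the subunits with a PCI or MPN domain (folds shared with the proteasome lid). Eif3e stood at 8.69, 8.61, 8.90 and 8.57 in wild type and at 9.02, 9.24, 9.20 and 9.45 in knockout. It rose by 0.54 (SE 0.111, limma adjusted p = 0.00698) with groups that did not overlap. Eif3f stood at 10.80, 10.62, 10.73 and 10.63 in wild type and at 11.07, 11.26, 11.18 and 11.24 in knockout. It rose by 0.49 (SE 0.0799, adjusted p = 0.00215), again without overlap. Eif3m rose by 0.38 (SE 0.0885, adjusted p = 0.0113), and its other feature by 0.43 (adjusted p = 0.0358 over all features). Eif3l rose by 0.31 (SE 0.0741, adjusted p = 0.0127).

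Eif3a, the largest subunit and the backbone of the complex, showed the tightest knockout group of all members. Its levels were 9.32, 9.36, 9.40 and 9.34 in wild type and 9.66, 9.66, 9.66 and 9.66 in knockout, with an SD of 0.0347 and 0.00326. The difference was 0.30 (SE 0.0659, limma adjusted p = 0.00885). Eif3d, whose product can itself bind the cap of some mRNAs, rose by 0.35 (SE 0.0937, adjusted p = 0.0209). Its groups did not overlap, at 9.61 to 9.90 and 9.98 to 10.25. The call was lost without Sel1L knockout replicate 2, 3 or 4 (adjusted p = 0.0565, 0.0565 and 0.0593). Eif3b, the subunit on which Eif3g and Eif3i assemble, rose by 0.26 (SE 0.083, adjusted p = 0.0447), close to the threshold. This call was lost on leaving out any array except wild type replicate 3, with adjusted p from 0.0603 (without wild type replicate 4) to 0.114 (without Sel1L knockout replicate 3). It was also lost after quantile normalization (0.0729), cyclic loess (0.0742) and centring (0.264), and under the replicate block (0.0667).

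The remaining subunits did not pass the threshold. Eif3k differed by 0.23 (SE 0.078, limma adjusted p = 0.0518) with groups that did not overlap, and was called without wild type replicate 2 (adjusted p = 0.0447) and under 4 other alternatives (0.0179 to 0.0494). Eif3i differed by 0.25 (SE 0.0967, adjusted p = 0.0827), with 1 knockout array inside the wild type range, and was called with trend and robust variance (0.0441). Eif3h differed by 0.07 (adjusted p = 0.522, 95% interval -0.12 to 0.26), at 11.52 to 11.82 in wild type and 11.70 to 11.78 in knockout. By array, the median deviation of the 11 genes from their wild type means was 0.21 on knockout replicate 1 and 0.31 to 0.43 on the other knockout arrays, against -0.04 to 0.05 on the wild type arrays.

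**Figure D2:**
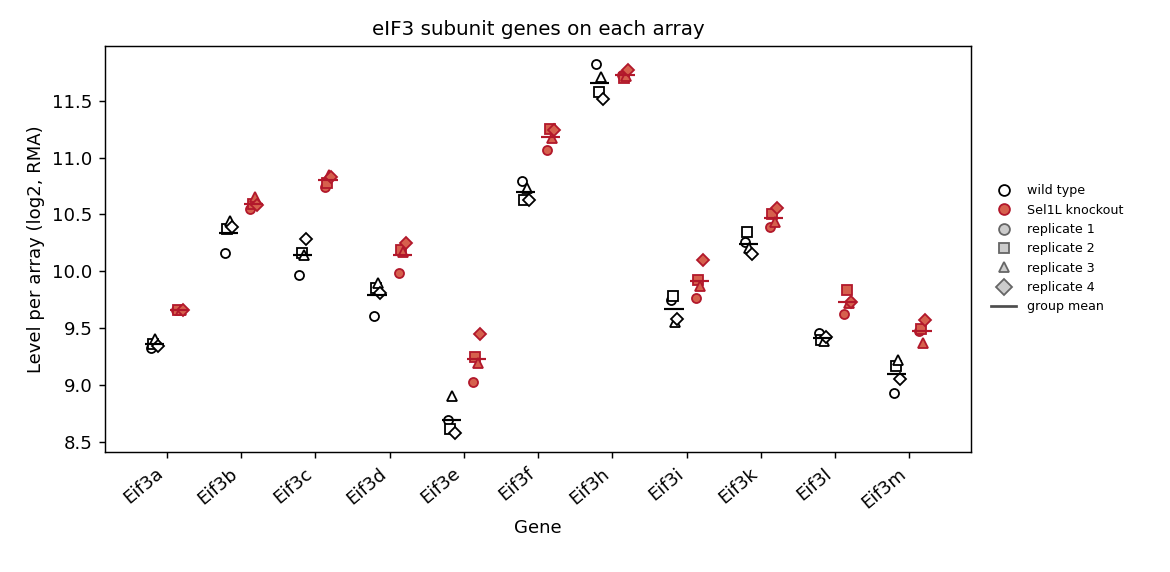
Level per array (log2, vertical axis) of the 11 eIF3 subunit genes, with wild type as open and Sel1L knockout as filled symbols, symbol shape for the replicate number and a line at each group mean. Knockout symbols lie above all wild type symbols for 9 genes, and those of Eif3i and Eif3h overlap with wild type; levels of different genes come from different probes and are not comparable.

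Promoters were searched for motifs of the ER stress response. RefSeq promoter entries (GRCm38.p6) matched 33 of the 42 genes, and the 250 bases before each annotated start were searched on both strands. The ER stress element (CCAAT and CCACG with 9 bases between them) was in 0 of 33 (0.13% of 27025 genes with an entry), its second form (ATTGG and CCACG with 1 base between them) in 0 (0.037%), and the ATF4 composite element TGATGNAA in 0 (3.91%). The unfolded protein response element TGACGTGG was in 1, Eif3a (0.603% of all). Of the parts of the ER stress element, CCAAT was in 12 (36.4%, against 37.5% of all) and CCACG, which overlaps the reverse of TGACGTGG, in 20 (60.6%, against 31.0%). Of the 14 called members with an entry, 8 held CCACG and 4 held CCAAT. Most holders of each of these 2 motifs were therefore uncalled members. The shares were not adjusted for the base composition of the promoters. A match is a description of letters, not of binding. The 200 bases before the start are shown for the holder of the response element, for the 2 eIF3 genes with the smallest p, and for Eif2b2 and Eif2d, the eIF2B and carrier genes that changed; capitals mark TGACGTGG, CCAAT and CCACG on either strand.
Eif3a, chr19:60790694-60790893, minus strand: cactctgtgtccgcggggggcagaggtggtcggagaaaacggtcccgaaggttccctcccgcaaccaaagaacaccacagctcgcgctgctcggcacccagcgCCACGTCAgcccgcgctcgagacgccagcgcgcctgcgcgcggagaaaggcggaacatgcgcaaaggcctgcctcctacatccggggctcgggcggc
Eif3c, chr7:126566367-126566566, minus strand: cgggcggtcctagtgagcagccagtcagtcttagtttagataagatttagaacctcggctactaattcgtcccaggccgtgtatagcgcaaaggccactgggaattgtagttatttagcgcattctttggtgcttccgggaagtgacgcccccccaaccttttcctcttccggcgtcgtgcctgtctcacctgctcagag
Eif3f, chr7:108934215-108934414, plus strand: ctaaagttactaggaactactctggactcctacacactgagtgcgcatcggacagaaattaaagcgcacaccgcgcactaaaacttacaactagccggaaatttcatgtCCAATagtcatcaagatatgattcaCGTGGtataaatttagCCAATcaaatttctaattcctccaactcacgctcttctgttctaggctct
Eif2b2, chr12:85219281-85219480, plus strand: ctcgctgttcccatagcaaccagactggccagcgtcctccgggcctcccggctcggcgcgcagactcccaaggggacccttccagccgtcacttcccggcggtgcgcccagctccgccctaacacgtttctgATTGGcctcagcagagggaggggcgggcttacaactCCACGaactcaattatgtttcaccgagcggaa
Eif2d, chr1:131153007-131153206, plus strand: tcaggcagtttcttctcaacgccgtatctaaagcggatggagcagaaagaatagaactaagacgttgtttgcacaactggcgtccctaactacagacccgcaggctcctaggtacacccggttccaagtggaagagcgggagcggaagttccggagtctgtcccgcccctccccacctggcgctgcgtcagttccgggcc
In Eif3a the response element lies on the opposite strand from the gene and begins 97 bases before the start. Eif3f holds CCAAT at 91 and 50 bases before its start, with CCACG reversed between them at 66. In Eif2b2 a reversed CCAAT lies at 68 and CCACG at 32 bases before the start. Eif3c and Eif2d hold none of these motifs here. Whether the motifs relate to the direction of change was not tested.

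Among the factors that carry the initiator tRNA, Eif2d rose. It encodes a GTP-independent factor that acts in reinitiation and in recycling of the small subunit. Its levels were 7.79, 7.65, 7.87 and 7.77 in wild type and 8.26, 8.45, 8.27 and 8.36 in knockout, so the groups lay apart. The difference was 0.57 (SE 0.0826, limma adjusted p = 0.00122, 1.48-fold), and the call held under all 17 alternatives run. Eif2a, an alternative carrier unrelated to the alpha subunit of eIF2, differed by 0.15 (SE 0.0933, adjusted p = 0.234). Eif2s2, the beta subunit of eIF2, differed by -0.03 (SE 0.12, adjusted p = 0.862) on the feature used. Its dimmer feature gave -0.34 (SE 0.0827, adjusted p = 0.0152 over all features), so whether Eif2s2 RNA fell depends on the feature read.

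The 5 subunits of eIF2B, the exchange factor that the stress kinases block through eIF2, did not move as 1 unit. Eif2b2, the beta subunit of the regulatory part, fell from 8.65, 8.89, 8.60 and 8.52 in wild type to 7.75, 7.97, 7.99 and 8.13 in knockout. The highest knockout value lay below the lowest wild type value, a 1.63-fold fall (difference -0.71, SE 0.108, limma adjusted p = 0.00158); the call held under all 17 alternatives. Eif2b3, the gamma subunit, stood at 7.24, 7.77, 7.76 and 7.74 in wild type and at 7.87 to 8.18 in knockout. Its difference of 0.37 (SE 0.133, adjusted p = 0.0621) was not called although the groups did not overlap, and wild type replicate 1 was low. Eif2b4, the delta subunit, differed by -0.15 (SE 0.0773, adjusted p = 0.177) without overlap, and was called lower after quantile normalization (-0.30, adjusted p = 0.0229) and cyclic loess (-0.28, adjusted p = 0.0244). Eif2b5, the catalytic epsilon subunit, differed by 0.17 (adjusted p = 0.203, 95% interval -0.05 to 0.39), and Eif2b1, the alpha subunit, by -0.10 (adjusted p = 0.377). Eif2b3 was called higher under the filter on dim genes (adjusted p = 0.0463), trend and robust variance (0.0409) and the replicate block (0.0441), and under none of the other 14 alternatives. No test of the difference between Eif2b2 and the other subunits was made.

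**Figure D3:**
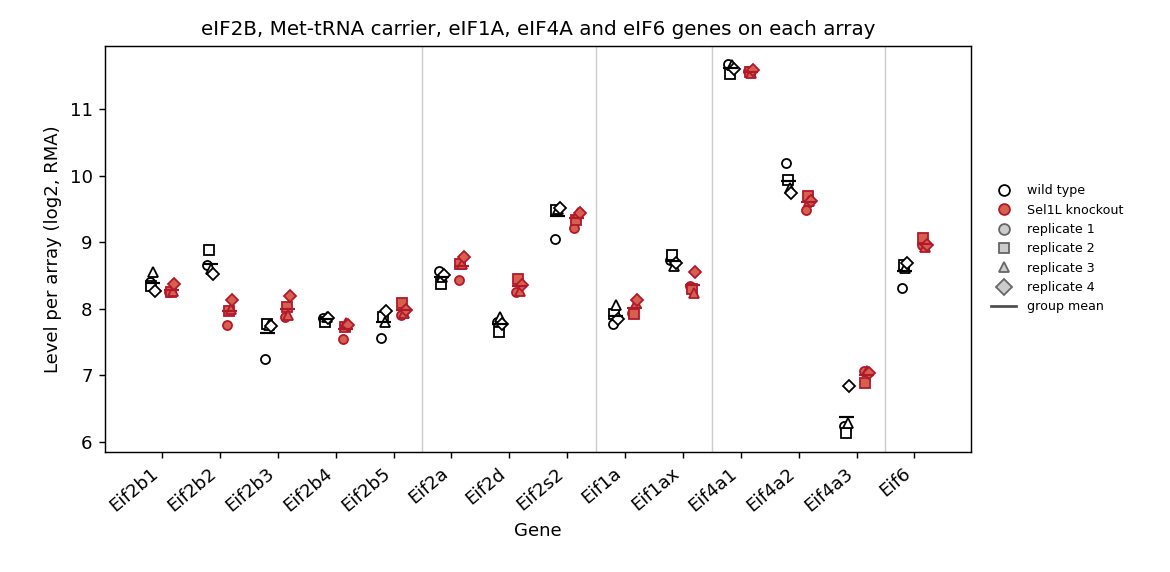
Level per array (log2, vertical axis) of eIF2B, Met-tRNA carrier, eIF1A, eIF4A and eIF6 genes; open symbols are wild type, filled symbols Sel1L knockout, shapes give the replicate number and lines the group means. Knockout lies below wild type without overlap for Eif2b2, Eif2b4, Eif1ax and Eif4a2, and above it for Eif2b3, Eif2d, Eif4a3 and Eif6; wild type replicate 1 is low in Eif2b3, Eif2s2 and Eif6.

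For scanning and start codon recognition, 1 of 5 genes was called (20.0%, against 28.7% of all genes), namely Eif1ax. It is the X-linked gene of eIF1A, which stabilises the scanning ribosome, and stood at 8.73, 8.80, 8.64 and 8.69 in wild type against 8.34, 8.29, 8.23 and 8.55 in knockout. The fall was -0.36 (SE 0.089, limma adjusted p = 0.0153) without overlap, and it was called under all 17 alternatives (adjusted p from 0.00602 to 0.0495). Its autosomal paralogue Eif1a differed by 0.12 (SE 0.0912, adjusted p = 0.336) with overlapping groups. Eif5, which triggers GTP hydrolysis on eIF2 at the start codon, was at 10.34 to 10.46 in wild type and at 10.53 to 10.74 in knockout. That difference of 0.20 (SE 0.0767, adjusted p = 0.0794) was not called, except with the filter on dim genes (0.0415) or trend and robust variance (0.0304). Eif1ad differed by 0.22 (SE 0.122, adjusted p = 0.187).

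At subunit joining, Eif6 rose and Eif5b did not pass. Eif6 keeps the large subunit from joining too early and also acts in its maturation. Its levels were 8.31, 8.66, 8.61 and 8.68 in wild type and 8.96, 9.06, 8.93 and 8.96 in knockout. All knockout arrays were higher, by 0.41 on average (SE 0.0974, limma adjusted p = 0.0123). Eif5b, the GTPase that joins the subunits, differed by 0.00 (SE 0.0854, adjusted p = 0.977, 95% interval -0.19 to 0.20).

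None of the 6 cap-binding genes and inhibitors was called, and their median difference was -0.10; 2 of the 6 had an unadjusted limma p under 0.05 (Eif4ebp2 and Eif4e3). Eif4e, the cap binder, differed by 0.24 (SE 0.112, limma adjusted p = 0.127) on the feature used and by -0.19 (adjusted p = 0.52 over all features) on its dimmer one. Eif4ebp2, an inhibitor that sequesters eIF4E, was at 9.74 to 10.00 in wild type and at 9.55 to 9.72 in knockout. Its groups did not overlap, yet the difference of -0.24 (SE 0.0892, adjusted p = 0.0716) was not called; it was after median centring (-0.34, adjusted p = 0.0367) and cyclic loess (-0.31, adjusted p = 0.0402), and at the same size with the filter on dim genes (0.0434) or with trend and robust variance (0.0358). Eif4e2, an eIF4E relative known as a translational repressor, differed by -0.14 (adjusted p = 0.188). Cyclic loess brought it past the threshold (-0.25, adjusted p = 0.0469). Eif4e3, a further relative, differed by 0.41 (SE 0.168, adjusted p = 0.0965) at a level below the array median on 7 of 8 arrays, and was called without wild type replicate 3 (0.53, adjusted p = 0.037). Of the scaffold genes, Eif4g3 differed by 0.21 (SE 0.103, adjusted p = 0.142). Eif4g2, which lacks the cap-binder site and serves cap-independent starts, differed by 0.04 (adjusted p = 0.709, 95% interval -0.12 to 0.19).

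The eIF4A helicase genes and their cofactors split by direction: 2 of 6 rose and 2 fell. Eif4a1, the main helicase of initiation, was at 11.53 to 11.68 in wild type and 11.55 to 11.59 in knockout. It differed by -0.05 (SE 0.0705, limma adjusted p = 0.613, 95% interval -0.21 to 0.11), and its 2 other features by -0.08 and -0.07. Its paralogue Eif4a2 fell from 10.19, 9.94, 9.82 and 9.74 to 9.49, 9.70, 9.62 and 9.62. That difference of -0.31 (SE 0.106, adjusted p = 0.0497) stood just inside the threshold. The call was lost on leaving out any array except wild type replicate 4. Adjusted p then ran from 0.052 (without wild type replicate 3) to 0.117 (without Sel1L knockout replicate 1). It was also lost with array weights (limma adjusted p = 0.0664) and under the replicate block (0.0895).

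Eif4a3, the helicase of the exon junction complex rather than of initiation, rose from 6.24, 6.12, 6.27 and 6.84 to 7.06, 6.88, 7.07 and 7.03. Wild type replicate 4 lay close to the knockout arrays, and the difference was 0.64 (SE 0.146, limma adjusted p = 0.0107). The annotated copy Eif4a3l1 changed in the opposite direction, by -0.73 (SE 0.162, adjusted p = 0.00961), at 3.45 to 4.30 in wild type and 3.09 to 3.30 in knockout. It lay below the array median on all 8 arrays, so this size is rough, and near-identical copies can share probe signal. Eif4h, a cofactor of eIF4A, rose from 9.94, 9.77, 9.90 and 9.95 to 10.28, 10.30, 10.27 and 10.30. The rise was 0.40 (SE 0.0728, adjusted p = 0.00394), and the knockout values spanned far less than the wild type values. Eif4b, the other cofactor, differed by 0.17 (SE 0.0819, adjusted p = 0.134).

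Eif5a encodes the hypusine-bearing factor that helps ribosomes past stalling sequences. It was at 11.29 to 11.57 in wild type and 11.20 to 11.55 in knockout, a difference of -0.03 (SE 0.107, limma adjusted p = 0.837, 95% interval -0.27 to 0.21). Eif5a2, its tissue-restricted paralogue, lay below the array median on all 8 arrays and differed by 0.09 (adjusted p = 0.594).

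The scaling between arrays changed how many genes were called. Centring each array on its median moved the median of all genes by -0.11, to -0.14. It left 6 members higher and 5 lower, against 9.93% and 21.3% of all genes (31.3% in either direction). Quantile normalization gave 11 higher and 5 lower, against 10.4% and 10.4% of all genes (20.8% in either direction). Cyclic loess gave 11 and 7, against 11.2% and 10.6% (21.9% in either direction). Over all genes the share of calls that were higher was 56.0% as deposited and 49.8%, 31.8% and 51.3% under quantile normalization, centring and cyclic loess. For the members that share was 75.0%, 68.8%, 54.5% and 61.1%. Of the eIF3 genes 7 were called higher after quantile normalization, 7 after cyclic loess and 3 after centring (Eif3c, Eif3e and Eif3f), and 0 lower under each. Their median difference was 0.24, 0.24 and 0.21, against medians of -0.01, 0.00 and -0.14 for all genes. Eif3a, Eif3b, Eif3d, Eif3l, Eif3m and Eif6 missed the threshold after centring (limma adjusted p = 0.101, 0.264, 0.12, 0.113, 0.0651 and 0.0617).

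**Figure D4:**
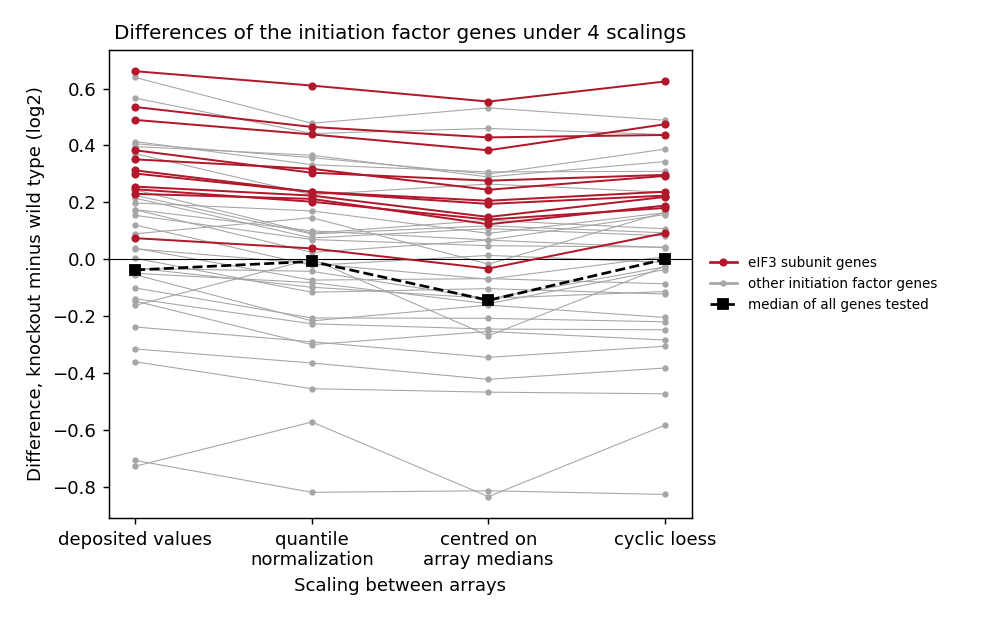
Difference of each initiation factor gene (log2, knockout minus wild type, vertical axis) on the deposited values and after 3 other scalings, with eIF3 genes in red, other members in grey and the median of all genes as a dashed line. The eIF3 lines stay above the dashed line under all 4 scalings, and 1 of them, Eif3h, falls below 0 after centring.

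Genes that act on or beside the initiation factors were taken as lists by role, with 47 genes measured; 11 were higher and 5 lower (23.4% and 10.6%, against 16.1% and 12.6% of all genes). Among genes above the median level, 12 of 43 were higher and 5 lower (27.9% and 11.6%, against 32.0% and 12.4%). In the list on control of eIF2 phosphorylation 4 of 10 genes were higher and 2 lower, against 16.1% and 12.6% of all genes. Among genes above the median level 4 of its 9 genes were higher and 2 lower, against 32.0% and 12.4%. After quantile normalization, centring and cyclic loess this list had 2 genes higher and 2 lower each time. The shares of all genes called higher were then 10.4%, 9.93% and 11.2%, and those called lower 10.4%, 21.3% and 10.6%. This list held the gene with the largest difference of the 47. Ppp1r15a, the stress-induced partner (GADD34) of the phosphatase that restores eIF2, was at 7.32, 7.35, 7.34 and 7.22 in wild type and at 8.11, 8.30, 8.35 and 8.64 in knockout. It rose by 1.04 (SE 0.11, limma adjusted p = 0.000214, 2.06-fold). Ppp1r15b, the constitutive partner of the same phosphatase, fell from 8.24, 8.64, 8.36 and 8.46 to 7.67, 7.82, 7.74 and 7.73. The fall was -0.68 (SE 0.0956, adjusted p = 0.000977), so the 2 partners changed in opposite directions without overlap of the groups. Of the kinases, Eif2ak3, the gene of PERK, differed by -0.14 (SE 0.0858, adjusted p = 0.226). Eif2ak4, the gene of the amino acid sensor GCN2, fell by 0.39 (SE 0.0916, adjusted p = 0.0116). Dnajc3 (p58IPK), an ER co-chaperone also described as a PERK inhibitor, rose by 0.57 (SE 0.0797, adjusted p = 0.00101). Impact, an inhibitor of GCN2 activation, rose by 0.32 (adjusted p = 0.0207) and the adaptor gene Nck1 by 0.37 (adjusted p = 0.0153). Both lost the call after all 3 other scalings (adjusted p from 0.131 to 0.233, and from 0.0673 to 0.107), and Impact also without Sel1L knockout replicate 3 (adjusted p = 0.0618).

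Of 4 genes of reinitiation and recycling, 3 rose (75.0%, against 16.1% of all genes). Denr and Mcts1 encode the partners of a dimer with the same domains as Eif2d, and Mcts2 is an intronless copy of Mcts1. Mcts1 was at 5.07 to 5.38 in wild type and 5.60 to 5.84 in knockout, up by 0.59 (SE 0.0955, limma adjusted p = 0.0021). Mcts2 was at 7.53 to 7.97 and 8.20 to 8.60, up by 0.67 (SE 0.129, adjusted p = 0.00498); the copies can share probe signal. Denr rose by 0.31 (SE 0.0792, adjusted p = 0.0178), a call lost without Sel1L knockout replicate 4 (adjusted p = 0.051) and after the other scalings (adjusted p from 0.145 to 0.235). Abce1, the ribosome splitting ATPase, was the gene not called.

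In the mTORC1 and MNK list 2 of 15 genes were lower and 0 higher. The share lower was 13.3%, close to the 12.6% among all genes. Larp1, a repressor of mRNAs with a terminal pyrimidine tract, which encode ribosomal proteins and several initiation factors, fell from 10.93 to 11.02 in wild type to 10.44 to 10.58 in knockout. The difference was -0.45 (SE 0.0704, limma adjusted p = 0.00166). Rps6kb2, an S6 kinase, fell by 0.33 (SE 0.0793, adjusted p = 0.013). Mtor differed by -0.08 (adjusted p = 0.436) and Eif4ebp1, an eIF4E inhibitor known as an ATF4 target, by 0.07 (adjusted p = 0.494, 95% interval -0.10 to 0.24). Of 5 genes of poly(A) binding, Pabpc4 fell by 0.65 (SE 0.0848, adjusted p = 0.000665), while the inhibitors Paip2b and Paip2 rose by 0.40 (SE 0.0701, adjusted p = 0.00325) and 0.26 (SE 0.071, adjusted p = 0.0235). The Paip2 call was lost without Sel1L knockout replicate 2, 3 or 4, or wild type replicate 3 (limma adjusted p from 0.0503 to 0.0652). It was also lost after the other scalings (0.108 to 0.216) and under the replicate block (0.0592). Of 8 elongation factors 2 rose (25.0%, against 16.1% of all genes), both exchange factor subunits. Eef1b2 rose by 0.50 (SE 0.0795, limma adjusted p = 0.00187) and Eef1d by 0.40 (SE 0.0864, adjusted p = 0.00837). Eef1d was not called after the other scalings (adjusted p from 0.0577 to 0.0855). None of 3 termination and 2 hypusine genes was called by limma, and 0 of them had an unadjusted p under 0.05.

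**Figure D5:**
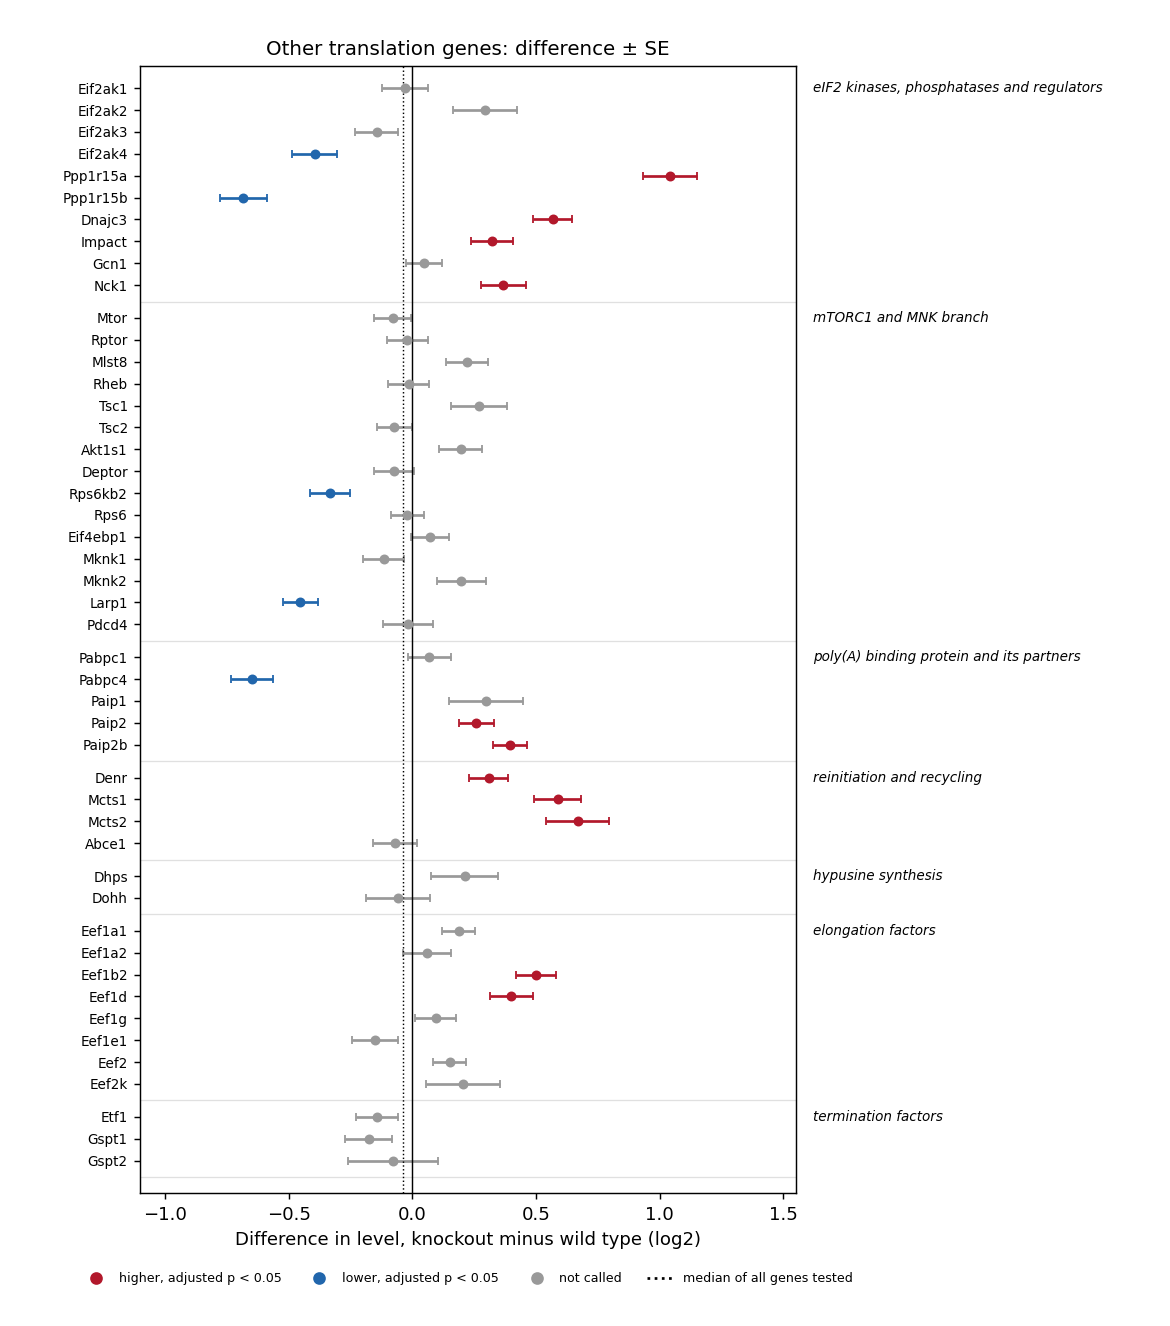
Difference in level (log2, knockout minus wild type, points) with the moderated standard error (bars) for 47 other translation genes by list; colour marks genes called at an adjusted p under 0.05 and the dotted line the median of all genes. Ppp1r15a (1.04) and Ppp1r15b (-0.68) lie at the opposite ends.

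Some markers of acinar and endothelial cells were called between the genotypes, and their part in these differences was not tested. In bulk tissue, fewer cells of a type and less RNA per cell cannot be told apart. Of 7 acinar markers 4 were lower and 0 higher (57.1% lower, against 12.6% of all genes). After quantile normalization 2 were lower, after cyclic loess 4 and after centring 5. The shares of all genes called lower were then 10.4%, 10.6% and 21.3%. Of 5 endothelial markers 3 were higher, with list means of 7.29 to 7.56 in wild type and 7.62 to 7.90 in knockout. That is 60.0%, against 16.1% of all genes and 32.0% of genes above the median level. The endothelial calls fell to 0 after quantile normalization, 0 after cyclic loess and 1 after centring. They also fell to 0 without Sel1L knockout replicate 3 or 4 or wild type replicate 1, and to 1 without wild type replicate 2. Of 7 islet markers 1 was higher and 1 lower (list means 7.99 to 9.26 and 7.99 to 9.37). Those are 14.3% each, against 16.1% and 12.6% of all genes. The higher one, Ppy, had overlapping groups and lost its call after all 3 other scalings. Of 7 lymphocyte markers 1, Cd2, was lower (14.3%, list means 3.84 to 4.45 and 3.77 to 4.31). Cd2 had overlapping groups and lay below the array median on all 8 arrays. Its call was lost after quantile normalization and cyclic loess. None of 9 macrophage, 8 stellate cell, 5 ductal and 4 adipocyte markers was called by limma; 0, 1, 2 and 1 of them had an unadjusted p under 0.05. Wild type replicate 2 was the array low in macrophage and stellate cell markers. Without it, 2 macrophage and 2 stellate cell markers were called lower (list medians -0.32 and -0.38). In that fit 12 initiation factor genes were higher and 3 lower, and 8 eIF3 genes were higher.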

How the data were processed

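Pancreas RNA from 4 wild type and 4 Sel1L knockout samples was read on 1 array each. The values are the authors' deposited, normalized log2 levels. They were made with RMA per the submitters' processing notes (the version is not given in the sources used here), and the log base was taken from their range of 0.964 to 14.4. Arrays give no read depth, and their number limits the precision. Of 35556 features, 21218 had 1 gene symbol in the platform annotation, 1881 several and 12457 none. Only the first were used, and the feature with the highest mean stood for its gene. All 18820 genes were fitted with limma 3.58.1 (R 4.3.3; lmFit, eBayes) on group, with Benjamini-Hochberg adjustment and calls at an adjusted p under 0.05. The fit was tested on simulated data. Intervals are 95% and use the moderated spread. Figures were drawn with matplotlib 3.10.9.

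The members and lists were chosen with earlier results of these data known. Genes named in the text are the called members, the 3 uncalled members of each role with the smallest p, called genes of the other lists, and a few core factors whatever their p. Eif1b, Eif2b1, Eif4e1b, Eif4e2 and Abce1 lie outside that rule and were named after their values were seen. Motifs were counted by exact match, and no feature coordinates were used. Alternatives were 3 scalings (quantile, median centring, cyclic loess), a filter on dim genes, 2 ways to treat several features, trend and robust variance, array weights, a replicate block, and leaving out each array.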

Additional observations from a re-analysis of the deposited data

Results flagged for a closer look

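In groups of 4 samples, 5 of 122 gene and group combinations held a sample far from the other three by Dixon's ratio; chance flags about 1 in 20. Wild type replicate 1 was low in Eif2s2 (9.04) and in Eif2b3 (7.24) and stood apart in Eif2ak3 (10.31). Knockout replicate 4 stood apart in Eif2b1 (8.37) and in Mcts2 (8.20).

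Features annotated to several genes were used in no comparison, and 4 of them had every knockout value above every wild type value; none of these differences was tested. The feature of Rfc4 and Eif4a2 differed by 0.67 on the log2 scale, opposite in sign to the feature of Eif4a2 alone (-0.31). The feature of Ankhd1 and Eif4ebp3 differed by 0.43. The features shared by Eif4a3 and Eif4a3l1 differed by 0.34 and 0.37, the direction of Eif4a3 alone (0.64) and not of Eif4a3l1 alone (-0.73).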

How the results depend on the processing

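Sel1l stayed called under every alternative run, and leaving out each array in turn gave -0.78 to -0.70. That step left 10 to 13 members higher, 3 to 4 lower, a median of 0.15 to 0.20, and 6 to 8 eIF3 genes higher; over all genes 3721 to 5227 were called. Median centring left 6 members higher, and cyclic loess 7 lower. The members' median became 0.0819 (quantile), 0.0676 (centring) and 0.0926 (cyclic loess). The titles do not state that replicate numbers pair the samples. Correlations of same-numbered deviations were 0.22, 0.15, -0.27 and -0.02, and not every sample correlated best with its own number. Such correlations cannot settle whether samples were paired. The replicate block gave 12 members higher, 3 lower and 4678 genes called. Differences that changed sign were all of uncalled genes, and the cause was not tested. Quantile normalization turned Eif1a (-0.0214), Eif1b (-0.0730), Eif4e1b (0.00111), Eif4g2 (-0.0154) and Eif5b (-0.12). Centring turned Eif1b (-0.0679), Eif3h (-0.0324), Eif4ebp1 (-0.0345), Eif4g2 (-0.0696), Eif5a2 (-0.0170) and Eif5b (-0.10). Cyclic loess turned Eif1a (-0.0108), Eif1b (-0.0861) and Eif5b (-0.12), and array weights Eif5b (-0.0120). Leaving out 1 array changed the sign of Eif2s2 (range -0.146 to 0.0174), Eif5a (-0.0844 to 0.0343) and Eif5b (-0.0459 to 0.0467). Of the other comparisons over the 42 members, 637 kept sign and side of the threshold, 28 lost a call and 19 gained one.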
